A study of Homo sapiens with 6 samples.

Results

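The platelet-derived growth factor (PDGF) system was examined as a gene family. Its 7 members were taken by name from the 60748 genes of the deposited table: the ligand genes PDGFA, PDGFB, PDGFC and PDGFD, the receptor genes PDGFRA and PDGFRB, and PDGFRL, which codes for a receptor-like protein.

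RNA was sequenced from LX-2, an established line of human hepatic stellate cells, the perisinusoidal cells that turn into matrix-producing myofibroblasts when the liver is injured. LX-2Vector cells carried an empty lentiviral vector and LX-2FAP cells carried the corresponding overexpression construct for fibroblast activation protein α (FAPα), a membrane serine protease of activated stromal cells, with 3 libraries in each group. By the study's methods this vector has a ubiquitin promoter, EGFP and a puromycin resistance gene, and stable clones were picked under puromycin, so both groups are selected derivatives of 1 line and the number of clones behind each is not given in the sources used here. All cells were kept in serum-containing medium and cultured for 24 h, and the labels name no added PDGF and do not say whether the replicates were separate cultures.

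PDGFs are dimers that bind 2 receptor tyrosine kinases at the cell surface. The A and B chains are processed inside the cell, whereas the C and D chains are secreted with a CUB domain that a protease must remove before the factor can bind. PDGFRα binds the A, B and C chains and PDGFRβ binds the B and D chains. In the liver, PDGFRβ is a hallmark of stellate cells, and PDGF-BB is known as a strong mitogen and chemoattractant for them.

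LX-2 cells expressed 1 ligand and 1 receptor of this family above the rest of its kind, PDGFC and PDGFRB, while PDGFB, PDGFD and PDGFRA had only 5 to 27 counts per library. PDGFRB was 23.0% lower in LX-2FAP cells (19.1 ± 2.31 against 24.8 ± 2.35 CPM, counts scaled to library size, SD, n = 3 each). It was the only member of the family that passed the test, and that call was lost in 7 of 15 other ways of processing the data. In FPKM, PDGFC differed by less than the SD of either group, at 18.9 ± 0.927 in LX-2Vector and 19.3 ± 0.494 in LX-2FAP (SD, n = 3 each). In CPM, at 112.4 ± 5.20 and 117.1 ± 2.91, its difference exceeded the SD of LX-2FAP but not that of LX-2Vector. Among 75 tested genes that act with the PDGF receptors, 8 passed (10.7%, where 5.29% of all tested genes passed). EGR1, JUNB, LRP1 and INPPL1 were lower and ODC1, NRP1, PTPN11 and RASA1 higher, by modest amounts. None of the 8 was called without LX-2FAP replicate 3. JUNB, INPPL1 and RASA1 were also not called once a trend on GC content was removed.

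Counts per library ran from 17355700 to 26352060. CPM were scaled with TMM factors, and the authors' FPKM, which divide also by gene length, were used wherever levels of different genes are compared. FAP itself averaged 2.28 ± 0.379 CPM without the insert and 723.2 ± 112.3 CPM with it (SD, n = 3 each), which is 8.33 higher on the log2 scale (SE 0.13, edgeR quasi-likelihood adjusted p = 4.47e-16). Of 18275 genes with enough reads to test, 967 (5.29%) passed an adjusted p of 0.05, with 498 lower in LX-2FAP (2.73%) and 469 higher (2.57%). This split depended on the scaling, since library size alone gave 809 lower and 239 higher and removal of a trend on GC content gave 202 lower and 569 higher. Of the stellate and mural cell markers, VIM (vimentin) had the highest level at 1620 CPM, while LRAT had 0 counts in every library and DES was near 0, and 11 of the 14 markers had enough reads to test, PDGFRB among them.

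The ligands were led by PDGFC in every library. PDGFC (ENSG00000145431, GRCh38 chromosome 4, 156760454 to 156971394, minus strand) is a CUB-domain ligand of PDGFRα, and had 18.0, 18.8 and 19.9 FPKM across LX-2Vector replicates 1, 2 and 3, against 19.5, 18.7 and 19.7 FPKM across the LX-2FAP replicates. The ranges of the groups overlapped. From 1952 to 2851 counts per library, the PDGFC log2 fold change (LX-2FAP over LX-2Vector) was 0.06 with a 95% interval of -0.04 to 0.16, so a change the size of that in PDGFRB lay outside the interval (edgeR adjusted p = 0.479). PDGFC lay above 86.6% of tested genes in mean FPKM and made up 86.9 ± 0.472% of the summed ligand FPKM in LX-2Vector and 88.2 ± 0.575% in LX-2FAP (SD, n = 3 each).

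PDGFA (ENSG00000197461, GRCh38 chromosome 7, 497258 to 520296, minus strand) codes for the A chain, the ligand that binds PDGFRα alone when it pairs with itself. It had 2.24, 2.40 and 2.44 FPKM across LX-2Vector replicates 1, 2 and 3, against 2.43, 2.15 and 2.13 FPKM across the LX-2FAP replicates. In FPKM, LX-2FAP replicate 1 lay within the LX-2Vector values and the other 2 below them. In CPM, LX-2FAP replicate 1, at 10.18, lay above the LX-2Vector values of 9.27, 9.86 and 10.01, and the other 2, at 9.06 and 8.97, below them. The log2 fold change was -0.04 (95% interval -0.24 to 0.16, edgeR adjusted p = 0.860), and it was 0.10 once the GC trend was removed, so no direction was resolved. PDGFA was the second ligand by level, and PDGFC exceeded it 8.01 ± 0.181-fold in LX-2Vector and 8.65 ± 0.605-fold in LX-2FAP on the FPKM scale (SD, n = 3 each).

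The B chain gene and the D chain gene, whose products are the ligands of PDGFRβ, were both scarce. PDGFB (ENSG00000100311, GRCh38 chromosome 22, 39223359 to 39244751, minus strand) had 17, 22 and 23 counts across LX-2Vector replicates 1, 2 and 3, against 17, 11 and 9 counts across the LX-2FAP replicates. After scaling these were 0.643, 1.25 and 1.08 CPM against 0.709, 0.612 and 0.430 CPM, so that the highest LX-2FAP library lay above the lowest LX-2Vector library. The PDGFB log2 fold change was -0.70 with a wide 95% interval of -1.37 to -0.03 (unadjusted p = 0.0428 and adjusted p = 0.208, edgeR quasi-likelihood test), which does not pass. PDGFB values were lower in LX-2FAP under each of the 14 alternatives that gave it a value, with log2 fold changes from -0.97 to -0.13 (the latter on the log2(FPKM + 1) scale, which shrinks changes of low genes). None called PDGFB, though the DESeq2 Wald test gave it no adjusted p and so could not call it (unadjusted p = 0.127).

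PDGFD (ENSG00000170962, GRCh38 chromosome 11, 103907186 to 104164379, minus strand) had 0.187, 0.203 and 0.301 FPKM across LX-2Vector replicates 1, 2 and 3, against 0.165, 0.167 and 0.276 FPKM across the LX-2FAP replicates. Replicate 3 was the highest library in each group, and the ranges overlapped. These levels rested on 13 to 27 counts per library, and the log2 fold change of -0.14 had a 95% interval of -0.75 to 0.47 (edgeR adjusted p = 0.822). No difference in PDGFD was detectable at this depth. An exon of DDI1 on the other strand covers 4.52% of its exon bases, and whether counting used strand is not stated.

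Summed over the 4 genes, ligand transcripts came to 21.7 ± 1.13 FPKM in LX-2Vector and 21.9 ± 0.583 FPKM in LX-2FAP (SD, n = 3 each). PDGFA contributed 10.9 ± 0.219% and 10.2 ± 0.657% of those sums. PDGFB contributed 1.15 ± 0.343% and 0.661 ± 0.163%, and PDGFD 1.05 ± 0.227% and 0.925 ± 0.278%. In both groups less than 3% of ligand transcript was for the chains that bind PDGFRβ.

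**Figure D1:**
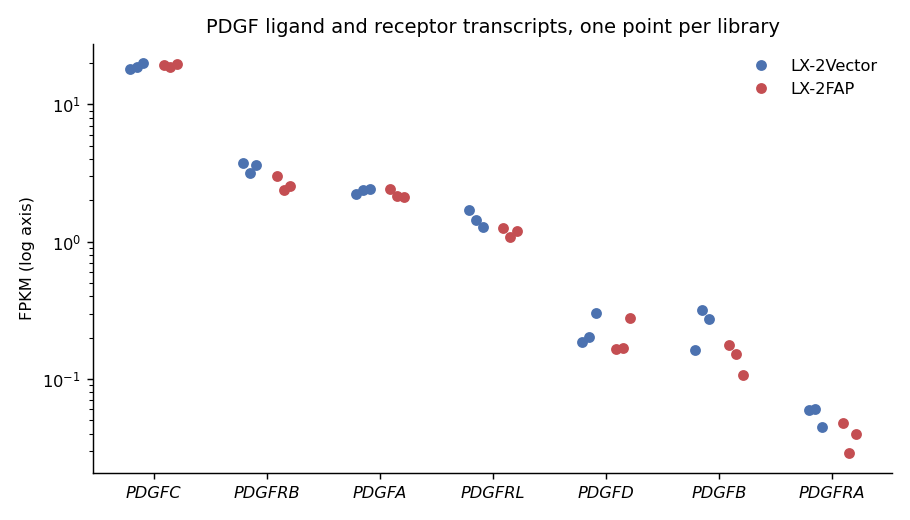
Level of each PDGF gene in FPKM on a log axis, with 1 point per library (blue LX-2Vector, red LX-2FAP, n = 3 each). PDGFC stands above all other members at 18.0 to 19.9 FPKM, PDGFRB, PDGFA and PDGFRL lie between 1.09 and 3.73 FPKM, and PDGFRA lies lowest at 0.0287 to 0.0604 FPKM.

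Of the receptors, PDGFRB (ENSG00000113721, GRCh38 chromosome 5, 150113837 to 150155872, minus strand) codes for PDGFRβ. It had 702, 389 and 549 counts across LX-2Vector replicates 1, 2 and 3, against 520, 310 and 386 counts across the LX-2FAP replicates. Scaled for depth, the LX-2Vector libraries had 26.6, 22.2 and 25.8 CPM and the LX-2FAP libraries 21.7, 17.2 and 18.4 CPM. All 3 LX-2FAP libraries lay below all 3 LX-2Vector libraries, with LX-2FAP replicate 1 only just below LX-2Vector replicate 2. The log2 fold change was -0.38 (SE 0.09, 95% interval -0.57 to -0.19, edgeR quasi-likelihood adjusted p = 0.0269). In bulk RNA, fewer cells with the transcript and less transcript per cell cannot be told apart.

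Of the 7 members, 6 had enough reads to test, 1 passed the test and 5 did not, where 5.29% of all tested genes passed. In normalized CPM, PDGFRB was also the only tested member whose groups did not overlap, against 26.4% of all tested genes. At the study's cutoff, more than 1.2-fold at a P under 0.05 taken here as unadjusted, PDGFB and PDGFRB passed, against 7.89% of all tested genes. The median log2 fold change of the 6 tested members was -0.22, and that of all tested genes was -0.01.

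**Figure D2:**
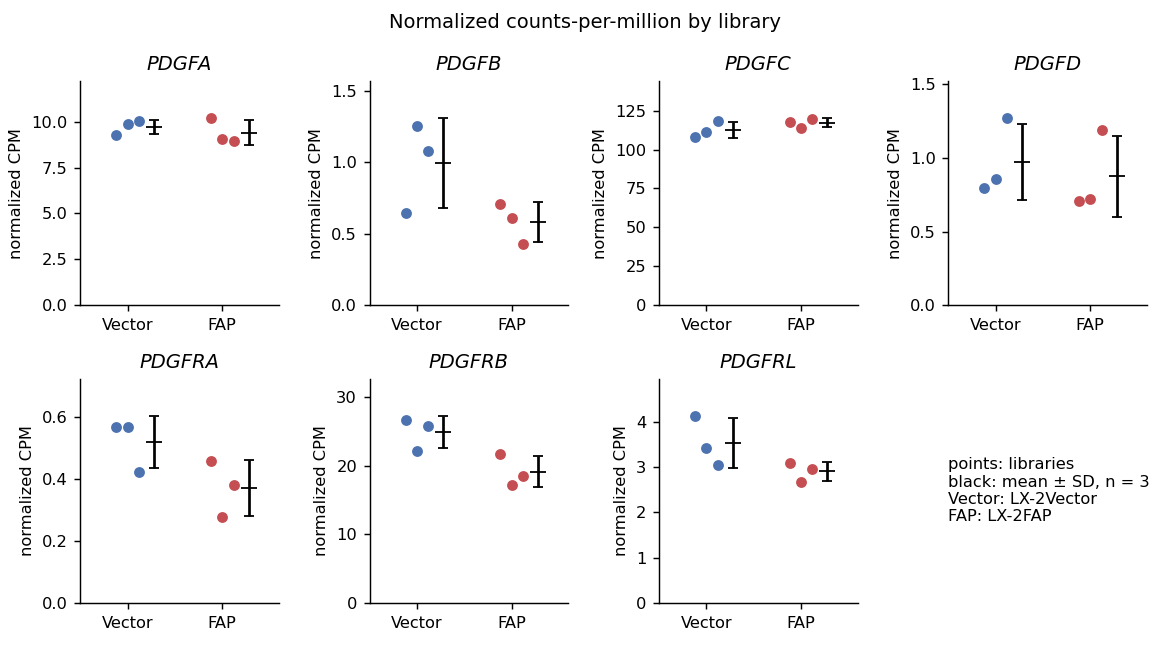
Normalized CPM of each PDGF gene, on linear axes from 0, with 1 point per library and the mean ± SD of 3 libraries in black. Only for PDGFRB do the groups separate among the tested members, at 22.2 to 26.6 CPM in LX-2Vector and 17.2 to 21.7 CPM in LX-2FAP.

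PDGFRB was lower in LX-2FAP under all 15 alternatives, with log2 fold changes from -0.48 to -0.27. It passed the test in 8 of them and missed it in 7. Leaving out replicate 1 or replicate 3 of LX-2Vector gave an edgeR adjusted p of 0.10 and 0.0704, leaving out replicate 2 or 3 of LX-2FAP gave 0.124 and 0.154, and limma-trend on FPKM gave 0.135 and 0.130 with the 2 pseudocounts. Gene GC content moved with the groups. With tested genes split by GC into 4 equal bins, the richest bin deviated from the mean of all libraries by a median of 0.12, 0.01 and 0.03 on the log2 scale for LX-2Vector replicates 1, 2 and 3 and by -0.02, -0.06 and -0.06 for those of LX-2FAP. The annotated transcripts of PDGFRB, pooled, have 57.8% GC, where the median tested gene has 48.5%. With the GC trend removed from each library, a step chosen after seeing the data, the PDGFRB log2 fold change was -0.27 and the edgeR adjusted p was 0.0746.

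**Figure D3:**
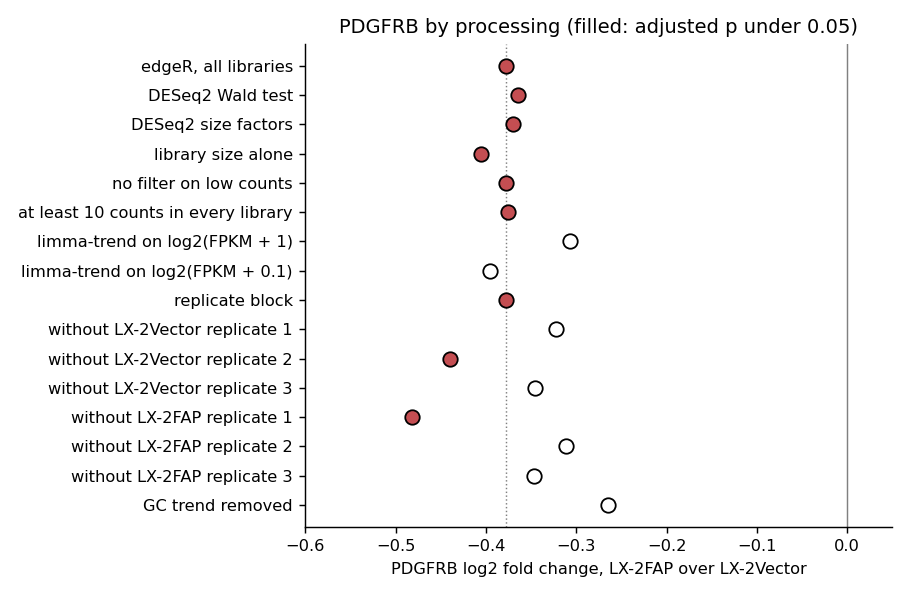
Log2 fold change of PDGFRB (LX-2FAP over LX-2Vector) by processing, with filled points where the adjusted p was under 0.05 and the dotted line at the value with all libraries. All points lie between -0.48 and -0.27, and 7 of the 15 alternatives give an open point.

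The window of sequence around the start of PDGFRB is shown because its transcript is the member that differed. It spans chr5:150155796-150156095 (RefSeq, GRCh38.p14, minus strand), from 250 bases before to 50 bases after the start site, with the CCAAT box in capitals.
PDGFRB: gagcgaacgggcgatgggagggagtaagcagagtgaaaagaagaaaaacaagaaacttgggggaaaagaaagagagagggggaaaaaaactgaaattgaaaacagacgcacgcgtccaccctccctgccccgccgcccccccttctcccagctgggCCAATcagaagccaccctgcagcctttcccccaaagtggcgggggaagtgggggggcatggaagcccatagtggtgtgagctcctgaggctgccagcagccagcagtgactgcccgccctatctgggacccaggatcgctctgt
Both strands of every window were searched for 4 motifs. The CCAAT box was searched by its own letters. The GC box was searched as GGGCGG. The TATA box was searched as TATAAA. The EGR1 site was searched as GCGGGGGCG or GCGTGGGCG. The PDGFRB window held 1 CCAAT box, from -94 to -90 relative to the start site, and 2 GC boxes on its other strand, from -118 to -113 and from 20 to 25. It held no match to the TATA box or the EGR1 site. Of 35116 RefSeq windows of this length, 34.6% held a CCAAT box, 45.0% a GC box, 11.5% a TATA box and 5.77% an EGR1 site, so the letters found at PDGFRB are common ones. Windows were matched for 4 of the 7 members, and a match is a description of the letters alone.

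PDGFRA (ENSG00000134853, GRCh38 chromosome 4, 54229097 to 54298247, plus strand) codes for PDGFRα, the receptor for the A and C chains. It had 15, 10 and 9 counts across LX-2Vector replicates 1, 2 and 3, against 11, 5 and 8 counts across the LX-2FAP replicates. It was the only member below the filter for testing, and its groups overlapped at 0.0447 to 0.0604 FPKM against 0.0287 to 0.0476 FPKM. Tested without a filter, its log2 fold change was -0.45 (edgeR adjusted p = 0.717). PDGFRA lies on the same strand as a read-through gene model, AC058822.1, that shares 15.8% of its exon bases, which leaves these few reads uncertain.

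PDGFRB exceeded PDGFRA 65.4 ± 15-fold in LX-2Vector and 70.3 ± 11.0-fold in LX-2FAP on the FPKM scale (SD, n = 3 each). The most abundant ligand transcript in these cells, PDGFC, codes for a ligand of the receptor whose transcript was scarcest. The more abundant receptor transcript, PDGFRB, met the scarcest ligand transcripts, PDGFB and PDGFD. These are transcript levels, and neither protein nor serum PDGF was measured in these data.

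PDGFRL (ENSG00000104213, GRCh38 chromosome 8, 17576433 to 17644071, plus strand) codes for a secreted protein that resembles the extracellular part of the PDGF receptors and has no kinase domain. It had 1.71, 1.43 and 1.27 FPKM across LX-2Vector replicates 1, 2 and 3, against 1.26, 1.09 and 1.21 FPKM across the LX-2FAP replicates. In CPM these were 4.13, 3.42 and 3.06 against 3.09, 2.67 and 2.96, so the groups overlapped slightly in CPM, between LX-2Vector replicate 3 and LX-2FAP replicate 1, and were just apart in FPKM. The PDGFRL log2 fold change of -0.29 (95% interval -0.62 to 0.04, edgeR adjusted p = 0.292) did not pass. Exons of MTUS1 on the other strand cover 11.5% of its exon bases.

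**Figure D4:**
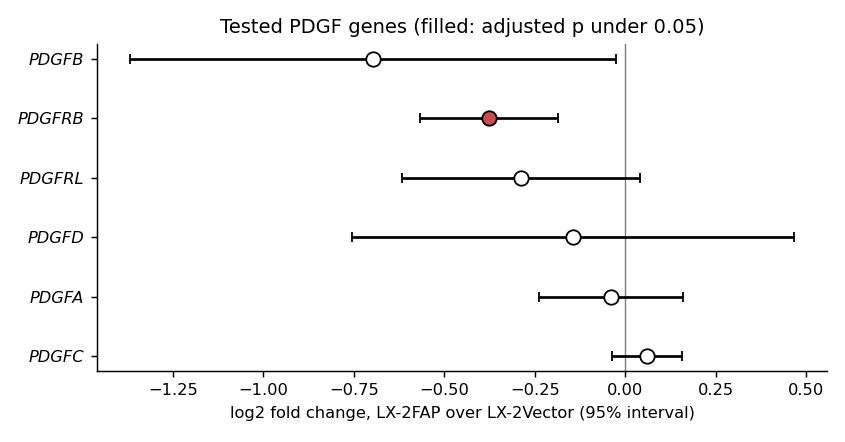
Log2 fold change (LX-2FAP over LX-2Vector) of the 6 tested PDGF genes with 95% intervals from the edgeR fit, filled where the adjusted p was under 0.05. PDGFC, at 0.06, has the narrowest interval and PDGFB, at -0.70, the widest.

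Ordered by mean FPKM over the 6 libraries, the members ran from PDGFC (19.1) through PDGFRB (3.08), PDGFA (2.30), PDGFRL (1.33), PDGFD (0.216) and PDGFB (0.198) to PDGFRA (0.0468). PDGFRB and PDGFA had overlapping ranges, though PDGFRB was the higher in 6 of 6 libraries. PDGFD and PDGFB also overlapped, and PDGFD was the higher in 4 of 6 libraries, so their order was not resolved. PDGFRB lay above 48.8% of tested genes in mean FPKM, PDGFRL above 33.1%, and PDGFRA above 0.230%.

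PDGFA is shown next because EGR1, an early growth response factor that is known in other cells to bind its GC-rich promoter, was among the pathway genes that fell. The window spans chr7:519797-520096 (RefSeq, GRCh38.p14, minus strand), and capitals mark the EGR1 sites. Of the PDGFA windows, it was picked for holding the most EGR1 sites close before the start site, so its matches follow from that choice.
PDGFA: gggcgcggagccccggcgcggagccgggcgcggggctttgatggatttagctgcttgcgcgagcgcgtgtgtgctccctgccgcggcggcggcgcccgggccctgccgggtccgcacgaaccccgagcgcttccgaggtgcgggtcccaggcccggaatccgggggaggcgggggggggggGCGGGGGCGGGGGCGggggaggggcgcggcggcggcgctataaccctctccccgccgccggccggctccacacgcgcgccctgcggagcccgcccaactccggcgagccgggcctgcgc
It held 2 overlapping matches to the EGR1 site, from -69 to -61 and from -63 to -55 relative to the start site. They overlap GC boxes that begin at -71, -65 and -59. A further PDGFA window, which starts at base 520177 of the same chromosome, also held 2 EGR1 sites. The other 2 PDGFA windows held none, and neither did the windows of PDGFRA and PDGFD. PDGFA transcript itself did not pass the test. EGR1 had 32.3, 28.8 and 30.4 CPM across LX-2Vector replicates 1, 2 and 3, against 21.2, 24.5 and 22.3 CPM across the LX-2FAP replicates, with no overlap. Its log2 fold change was -0.44 (SE 0.07, edgeR adjusted p = 0.00675).

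The wider pathway was described with 6 lists of 79 genes that act on the ligands, on the receptors or downstream of them. Of these, 75 were tested and 8 passed, 4 higher and 4 lower (10.7%, where 5.29% of all tested genes passed). In 42 the value was lower in LX-2FAP and in 33 it was higher, with a median log2 fold change of -0.01, the same as that of all tested genes. The groups did not overlap for 18 of the 75, against 26.4% of all tested genes. The number called by edgeR was 5, 6 and 4 without replicate 1, 2 or 3 of LX-2Vector, and 15, 4 and 0 without replicate 1, 2 or 3 of LX-2FAP. Genes called in all were 391, 662 and 395 in the former 3 fits and 1949, 129 and 26 in the latter 3. In the last of these fits 14 pathway genes had an unadjusted p under 0.05, against 2673 of all 18822 genes tested there. The DESeq2 Wald test called 10 pathway genes, where it called 1069 genes in all. Limma-trend on FPKM called 0, where it called only 2 genes in all with either pseudocount.

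Genes for ligand activation code for the proteases that cut the PDGF chains into active form. They held 0 calls by edgeR, DESeq2 or limma among 6 tested, where 5.29% of all tested genes passed in edgeR. Of the 6, 0 had an unadjusted p under 0.05 in edgeR, against 4054 of all 18275 tested genes. PLAT, which codes for tissue plasminogen activator, known to activate PDGF-CC, was the most abundant at 170.8 ± 13.7 CPM without and 161.3 ± 16.3 CPM with the FAP insert (SD, n = 3 each). FURIN, a convertase that processes the A and B chains, stood at 69.7 ± 7.47 and 68.3 ± 1.47 CPM. PLG had 0 counts in every library.

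Genes for ligand-binding proteins and coreceptors had 1 rise and 1 fall among 6 tested (33.3%, where 5.29% of all tested genes passed). LRP1, a large endocytic receptor that associates with PDGFRβ, had 194.9, 167.0 and 192.5 CPM across LX-2Vector replicates 1, 2 and 3, against 158.8, 127.1 and 134.1 CPM across the LX-2FAP replicates. The groups did not overlap and the log2 fold change was -0.40 (SE 0.07, edgeR adjusted p = 0.00823), and the gene stayed called without the GC trend and in 5 of 6 fits that left out 1 library. NRP1, the coreceptor neuropilin-1, rose from 491.4 ± 2.39 to 549.1 ± 21.2 CPM (SD, n = 3 each), with 0.16 for the log2 fold change (edgeR adjusted p = 0.0284) that was called in 2 of 6 such fits. SPARC, a matricellular protein that binds PDGF-B, had 234.7 ± 11.9 and 214.5 ± 7.90 CPM and did not pass (edgeR adjusted p = 0.102).

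Among 22 tested adaptors and enzymes that dock on the phosphorylated receptors, 2 rose and none fell past the test (9.09%, where 5.29% of all tested genes passed). PTPN11, the phosphatase SHP2, rose from 555.0 ± 15 to 628.4 ± 28.3 CPM (SD, n = 3 each), with 0.18 for the log2 fold change (edgeR adjusted p = 0.0233). RASA1, a RAS GTPase-activating protein that binds PDGFRβ, rose from 159.5 ± 3.71 to 177.2 ± 5.40 CPM, with 0.15 for the log2 fold change (edgeR adjusted p = 0.0444). RASA1 was called in none of the 6 fits that left out 1 library and PTPN11 in 2 of them, and exons of CCNH on the other strand cover 14.7% of the RASA1 exon bases. PLCG1, phospholipase C-γ1, was second by level with 293.8 ± 12.1 and 271.3 ± 13.2 CPM and did not pass.

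The RAS, ERK and AKT core had no gene of 17 that passed the edgeR test, where 5.29% of all tested genes passed. Its smallest adjusted p was 0.0785. Of the 17, 5 had an unadjusted p under 0.05, against 4054 of all 18275 tested genes. The DESeq2 Wald test called 1 of them and limma-trend 0, where limma-trend called 2 genes in all. MTOR, a kinase of growth control downstream of AKT, had 190.7 ± 13.1 and 190.7 ± 2.05 CPM (SD, n = 3 each). Of 9 genes for phosphatases and ubiquitin ligases that restrain the receptors or their lipid signals, only INPPL1 passed (11.1%, where 5.29% of all tested genes passed). INPPL1, the inositol phosphatase SHIP2, fell from 197.3 ± 11.6 to 172.5 ± 9.76 CPM, with -0.19 for the log2 fold change (edgeR adjusted p = 0.0392) that became -0.06 and was not called without the GC trend (adjusted p = 0.396), and it was called in 2 of 6 fits that left out 1 library. PTPN12, a tyrosine phosphatase and the most abundant of this list, had a log2 fold change of 0.02 and did not pass.

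PDGF early response genes, which are known to be induced within hours of PDGF, had 2 falls and 1 rise among 15 tested (20.0%, where 5.29% of all tested genes passed). JUNB, an AP-1 subunit, had 17.7, 19.3 and 19.3 CPM across LX-2Vector replicates 1, 2 and 3, against 14.3, 13.9 and 13.8 CPM across the LX-2FAP replicates. The groups lay well apart, and the log2 fold change stood at -0.42 (SE 0.08, edgeR adjusted p = 0.00823), which was -0.25 and no longer called without the GC trend (adjusted p = 0.0881). JUNB exons have 64.9% GC, and exons of HOOK2 on the other strand cover 14.2% of their bases. ODC1, ornithine decarboxylase of polyamine synthesis, rose from 192.1 ± 11.8 to 236.2 ± 21.4 CPM (SD, n = 3 each), with 0.30 for the log2 fold change (edgeR adjusted p = 0.0139), and was called in 4 of 6 fits that left out 1 library. FOSL1, the AP-1 subunit FRA1, was the most abundant with 330.9 ± 24.0 and 365.4 ± 12.2 CPM and did not pass (edgeR adjusted p = 0.0987).

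**Figure D5:**
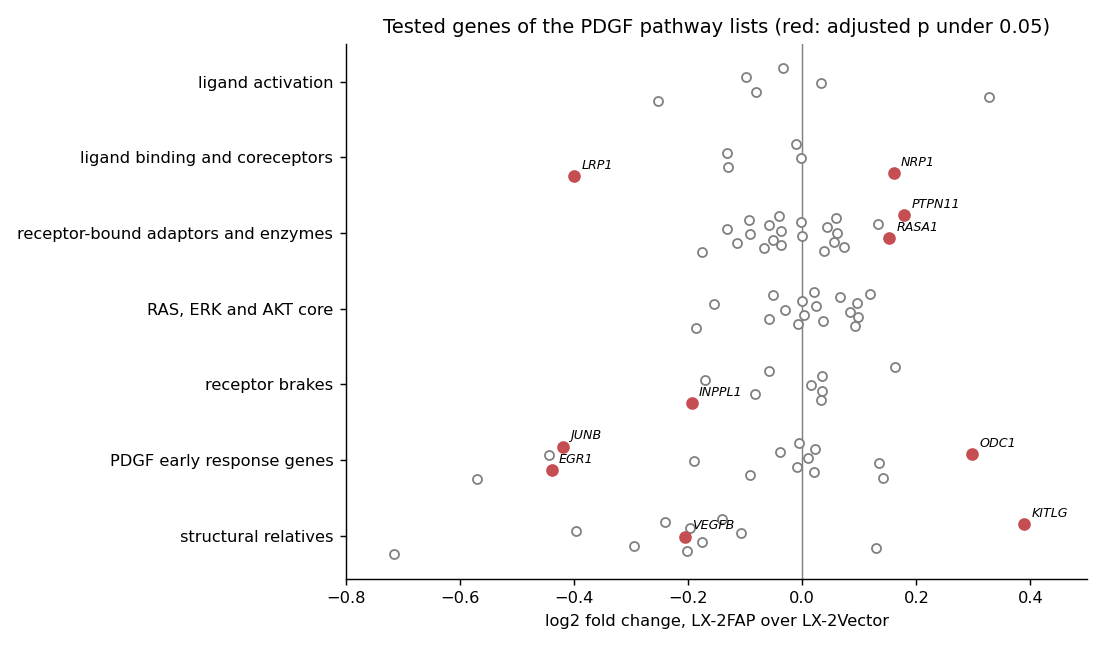
Log2 fold change (LX-2FAP over LX-2Vector) of each tested gene in the 6 PDGF pathway lists and in the list of structural relatives, with red named points where the edgeR adjusted p was under 0.05. Called genes lie on both sides of 0, from EGR1 at -0.44 to KITLG at 0.39, and the ligand activation list and the RAS, ERK and AKT core hold none.

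The PDGF genes were also set beside their structural relatives, the VEGF ligands and receptors and the class III receptor kinases with their ligands, of which 12 of 14 were tested and 2 passed (16.7%, where 5.29% of all tested genes passed). KITLG, stem cell factor, had 52.3, 54.4 and 55.3 CPM across LX-2Vector replicates 1, 2 and 3, against 62.5, 75 and 75.2 CPM across the LX-2FAP replicates. It rose in all 3 LX-2FAP libraries, and the log2 fold change stood at 0.39 (SE 0.07, edgeR adjusted p = 0.00765). VEGFB, a ligand of VEGFR1, fell from 48.5 ± 2.25 to 42.1 ± 1.94 CPM (SD, n = 3 each), with -0.21 for the log2 fold change (edgeR adjusted p = 0.0473) that was -0.05 and not called without the GC trend (adjusted p = 0.529). VEGFB was called in 1 of 6 fits that left out 1 library and was not called by the DESeq2 Wald test (adjusted p = 0.0675). KITLG was called in 5 of those 6 fits, and limma-trend, which called only 2 genes in all, called neither. VEGFA and CSF1, the relatives with the highest CPM, had log2 fold changes of -0.20 and -0.18 and did not pass. CSF1R, the receptor for CSF1, whose gene starts 464 bases past the end of PDGFRB on the same strand, had 2.60 ± 0.139 and 2.14 ± 0.338 CPM (SD, n = 3 each). Its groups did not overlap, and it did not pass at -0.29 for the log2 fold change (edgeR adjusted p = 0.338).

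For the 3 members with a mean count of at least 100, the genes of most similar course over the 6 libraries were sought among 11555 genes by Pearson's r of log2(CPM + 0.5). PDGFRB was most like DCAF5 (r = 0.999), PML (r = 0.998) and STK25 (r = 0.998), and 366 genes exceeded an r of 0.95 with it. PDGFC was most like MTRES1 (0.992), HLTF (0.989) and ARF6 (0.988), with 52 genes above 0.95. PDGFA was most like ARHGAP21 (0.976), GOLGA8A (0.975) and the unnamed gene ENSG00000232389 (0.973), with 18 above 0.95. These r values describe 6 libraries that share the group difference and the GC trend.

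Markers of cell types other than stellate cells were low. Summed CPM of the 4 endothelial markers was 6.95 to 8.74 in LX-2Vector and 5.23 to 6.83 in LX-2FAP, and of these VWF (von Willebrand factor) passed with 2.46 ± 0.603 and 1.17 ± 0.438 CPM (SD, n = 3 each, edgeR adjusted p = 0.0268). VWF was called in 2 of 6 fits that left out 1 library and in neither limma-trend fit, each of which called only 2 genes in all. The 4 hepatocyte markers summed to 12.7 to 14.7 CPM and 10.4 to 11.6 CPM, nearly all from SERPINA1, with TTR at 0 in every library. The 4 leukocyte markers summed to 7.95 to 10.1 CPM and 7.84 to 9.55 CPM, and the 3 epithelial markers to 0.705 to 1.25 CPM and 0.778 to 0.918 CPM. The 14 stellate and mural markers, which include PDGFRB, summed to 1934 to 2049 CPM and 1981 to 2114 CPM, mostly from VIM at 1620 CPM. Their median was only 6.75 CPM, below SERPINA1 at 12.1 CPM and near PTPRC, a leukocyte marker, at 5.37 CPM. Of 11 stellate and mural markers tested, 1 was higher and 3 were lower past the test (36.4%, where 5.29% of all tested genes passed). The part of any of these cell type markers in the PDGFRB difference was not tested.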

How the data were processed

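RNA sequencing of 6 libraries (LX-2Vector, n = 3, and LX-2FAP, n = 3) was analysed from one gene table. The authors deposited whole-number counts per gene, not normalized, and FPKM values that the authors computed from count and gene length. The submitters' processing notes name HISAT2 2.0.5, featureCounts 1.5.0-p3, DESeq2 1.16.1, edgeR and hg18. Neither the annotation release nor whether counting used strand is given in the sources used here, and the labels name ribosomal RNA depletion where the study's methods name poly(A) isolation. Coordinates were taken by gene identifier from GENCODE release 29 (GRCh38). The deposited functional annotation columns were not used.

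Groups and replicate numbers came from sample titles. The groups were compared on counts with edgeR 4.0.16 and its quasi-likelihood test (TMM, minimum count 10, minimum total 15, no covariate), 2-sided, with Benjamini-Hochberg adjustment over 18275 genes, and genes with an adjusted p below 0.05 were called. Standard errors and 95% intervals came from the test statistic. With 3 libraries against 3, an exact permutation test cannot go below 0.1. The p-values measure the spread between libraries, which may be technical. Between replicates of a group, chi-square over its degrees of freedom was 2.02 to 4.99, above counting noise.

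The members and gene lists were chosen with earlier results of these data known. Named genes were the 7 members, called pathway genes, the 2 most abundant genes of each list, the 3 genes most like each member whose mean count reached 100, and FAP, except that some of these are not reported here. CSF1R, PLG and the markers given with values were picked after their values were seen. Alternatives were DESeq2 1.42.0, its size factors, library size alone, no filter, at least 10 counts in every library, limma-trend 3.58.1 on log2(FPKM + 1) and log2(FPKM + 0.1), each library left out, a block on replicate number, CPM in place of FPKM for levels and, chosen after seeing the data, removal of a loess trend (span 0.5) on GC content, known for 98.1% of tested genes.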

Additional observations from a re-analysis of the deposited data

How the results depend on the processing

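PDGFRB was the only PDGF gene called in 8 of the alternatives. No PDGF gene was called by limma-trend with either pseudocount or by edgeR with the GC trend removed. These 3 fits had 2, 2 and 1 PDGF genes at an unadjusted p under 0.05, against 3662, 3638 and 3946 of all 18275 tested genes. Leaving out single libraries gave 0 to 1 called PDGF genes, with 1 to 3 at an unadjusted p under 0.05, where 2673 to 4659 of all tested genes were. Called pathway genes were 0 to 15 and called genes in all 26 to 1949. The lowest came without LX-2FAP replicate 3 and the highest without LX-2FAP replicate 1. At the study's cutoff 1 to 2 PDGF genes passed in these fits (2 with all libraries). The DESeq2 Wald test, at least 10 counts in every library, limma-trend on log2(FPKM + 1), the GC trend and the replicate block each left 1 PDGF gene at that cutoff. Pathway genes called were 0 by limma-trend with both pseudocounts and 7 to 11 elsewhere among fits of all libraries. Genes called in all were 1606 without a filter and 2 by limma-trend with both pseudocounts, which had 3662 and 3638 genes at an unadjusted p under 0.05. The replicate numbers did not pair the libraries (correlations of -0.04, 0.04 and -0.01 between same-numbered libraries), and no library correlated best with its own number. With the replicate block 975 genes were called. Values that changed sign, none of them called, were the log2 fold changes of PDGFA (0.10 with the GC trend removed), PDGFD (-0.43 to 0.10 with libraries left out singly), FURIN (-0.082 to 0.064 likewise and 0.12 with the GC trend removed), MTOR (-0.038 to 0.056 likewise, 0.012 with DESeq2, 0.0063 with its size factors, 0.00077 with at least 10 counts, 0.0016 with the block and 0.040 with the GC trend removed) and PTPN12 (-0.021 to 0.057 likewise, -0.013 with library size alone and with both limma-trend fits, and -0.031 with the GC trend removed). In CPM in place of FPKM, the PDGFC share of ligand level in LX-2Vector was 90.6% and PDGFRB exceeded PDGFRA 48.9-fold. The cause of these changes was not tested, except that the fits without a library hold fewer samples. With 5 to 27 counts per library, depth limits PDGFB, PDGFD and PDGFRA.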
